A study of Rattus norvegicus with 12 samples.

Results

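The genes of the core TGF-beta pathway were followed in whole rat lungs: the ligands Tgfb1, Tgfb2 and Tgfb3, the receptors Tgfbr1, Tgfbr2 and Tgfbr3, the latent binders Ltbp1 and Ltbp2, and the signal carriers Smad2 and Smad3. They were chosen by name and are 10 of 32883 genes in the deposited count table. All 10 were among the 15257 genes with enough counts to be tested. RNA was sequenced in 12 libraries of rats of WT genotype, 4 in each of 3 groups, all with the time given as 25 days. MCT-Fer-1 rats received monocrotaline, a plant alkaloid that injures lung vessels and is used to model pulmonary hypertension, and ferrostatin-1, an inhibitor of the lipid peroxidation that drives ferroptosis, for 10 days. MCT-vehicle rats received monocrotaline and vehicle for 10 days. Control rats carry no treatment in the labels, which do not say whether they were given vehicle, so that in MCT-vehicle against Control the toxin and the vehicle cannot be told apart. The sources used here give neither strain nor sex. The labels do not say that each library came from a separate animal, so the p-values measure the spread between these libraries.

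TGF-beta is secreted as an inactive dimer wrapped in its own propeptide, and latent binders tether that complex to the extracellular matrix until integrins or proteases set the ligand free. Free ligand binds Tgfbr2, which recruits and phosphorylates Tgfbr1, and Tgfbr1 then phosphorylates Smad2 and Smad3, which enter the nucleus with Smad4. In lung the pathway is known for driving matrix deposition by fibroblasts and smooth muscle, and for opposing BMP signals in vessel walls in pulmonary hypertension.

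Library totals were 11601929 to 70627239 counts in MCT-Fer-1, 13654695 to 24016262 in MCT-vehicle and 16640022 to 18229992 in Control. Markers of lung were present in every library: the summed level of 8 alveolar type 2 genes, which make surfactant, was 20929 to 37091 CPM (counts scaled to a common library size) in MCT-Fer-1, 22515 to 35877 CPM in MCT-vehicle and 34613 to 37798 CPM in Control. Heart muscle genes (11 of 11 matched, 7 tested, none called) summed to 418 CPM in MCT-vehicle 2 and 266 CPM in Control 4, against 17.3 to 82.0 CPM in the other libraries, and calls that changed without these libraries are given with both values. CPM are counts divided by library sizes scaled with TMM, and differences were tested with edgeR's quasi-likelihood method, with p-values adjusted over all 15257 genes and called below 0.05. In bulk lung, fewer cells of a type and less RNA per cell cannot be told apart. Levels of different genes are not compared with each other, since counts here are not scaled to transcript length.

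Both signalling receptors, Tgfbr1 and Tgfbr2, were higher in monocrotaline lungs with and without ferrostatin-1, and the co-receptor Tgfbr3 was lower in MCT-vehicle lungs. In MCT-vehicle against Control, 6 of the 10 genes passed the test (5 higher, 1 lower), while 18.6% of all genes tested did (10.3% higher, 8.28% lower). Tgfb1, Tgfb3, Tgfbr1, Tgfbr2 and Ltbp2 were higher and Tgfbr3 was lower. All 4 MCT-vehicle values lay outside the Control range in 5 of the 10 genes, against 21.5% of all genes tested (11.5% higher, 10% lower). The median log2 fold change was 0.23 over the 10 genes and 0.02 over all genes tested. Tgfb2, Ltbp1, Smad2 and Smad3 did not pass, and the 6 called genes are also those with an unadjusted p under 0.05, which 32.1% of all genes had. Between MCT-Fer-1 and MCT-vehicle none of the 10 passed, and none of the 15257 genes did (0%).

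**Figure D1:**
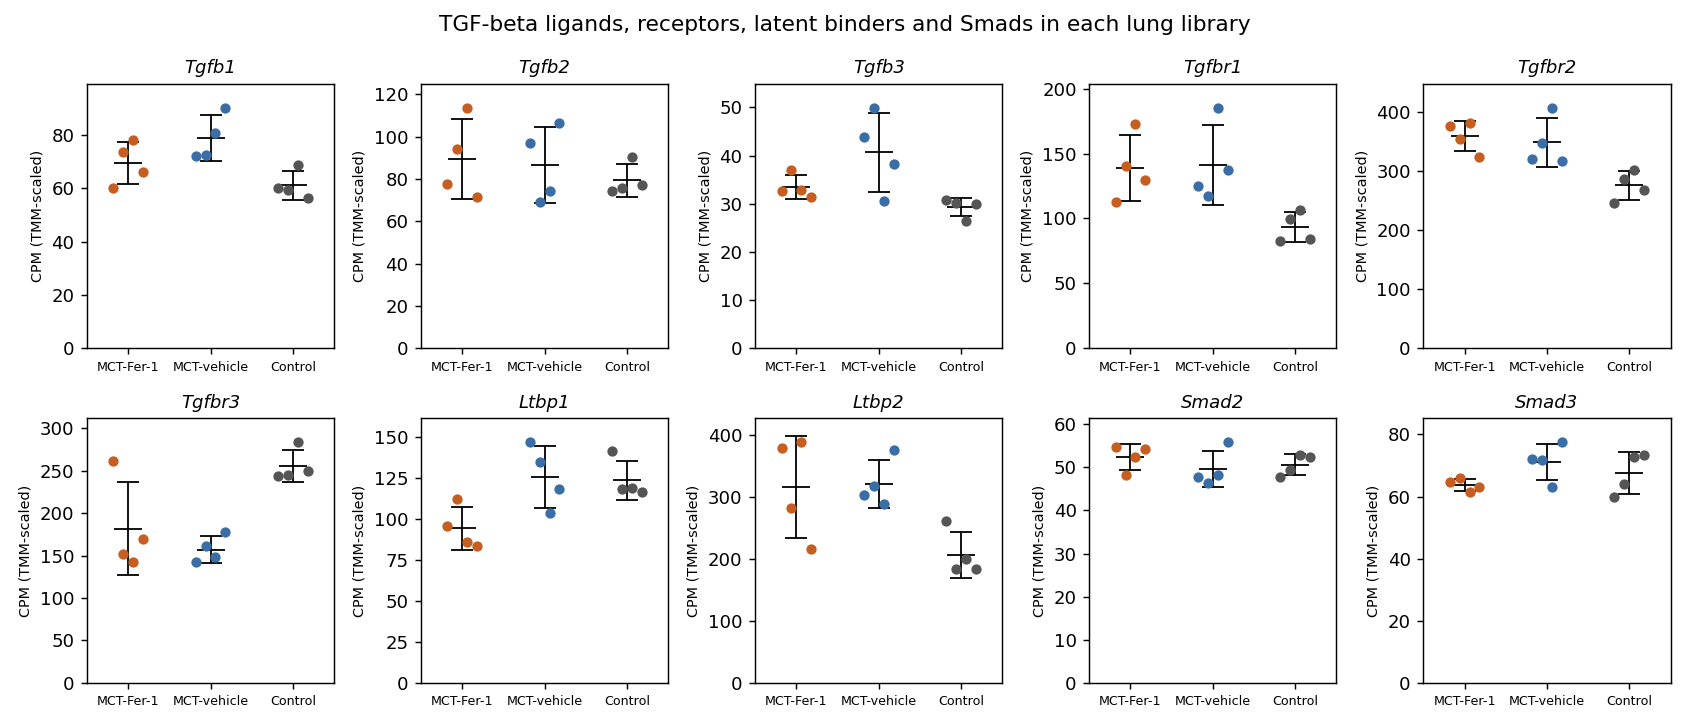
TMM-scaled CPM (linear axis from 0) of the 10 TGF-beta genes in each of 12 lung libraries. Points are libraries, the long bar is the group mean and the whiskers are 1 SD (n = 4 per group). Tgfbr3 sits lower in MCT-vehicle than in Control with no overlap, and 1 MCT-Fer-1 library, at 262 CPM, lies among the controls.

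The promoters of the receptors and latent binders are shown because these genes moved in different directions: Tgfbr1, Tgfbr2 and Ltbp2 were higher, Tgfbr3 was lower, and Ltbp1 did not pass the test. Each is the 250 bases before the annotated start in RefSeq (build GRCr8), read 5′ to 3′ on the gene's strand. Capitals mark, on either strand, CAGAC (core letters of the SMAD-binding element), TGANTCA (AP-1), GGGCGG (GC box), CCAAT and TATAAA.
Tgfbr1: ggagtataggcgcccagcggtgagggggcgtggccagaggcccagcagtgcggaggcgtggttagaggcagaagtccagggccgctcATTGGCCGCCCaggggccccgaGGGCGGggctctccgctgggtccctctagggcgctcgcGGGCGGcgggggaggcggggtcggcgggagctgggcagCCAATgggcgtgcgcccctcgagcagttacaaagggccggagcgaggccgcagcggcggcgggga
Tgfbr2: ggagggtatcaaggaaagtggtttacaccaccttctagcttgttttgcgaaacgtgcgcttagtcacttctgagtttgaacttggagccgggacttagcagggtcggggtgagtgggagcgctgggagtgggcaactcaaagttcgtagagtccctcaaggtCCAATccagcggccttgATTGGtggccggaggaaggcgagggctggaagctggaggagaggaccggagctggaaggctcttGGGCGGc
Tgfbr3: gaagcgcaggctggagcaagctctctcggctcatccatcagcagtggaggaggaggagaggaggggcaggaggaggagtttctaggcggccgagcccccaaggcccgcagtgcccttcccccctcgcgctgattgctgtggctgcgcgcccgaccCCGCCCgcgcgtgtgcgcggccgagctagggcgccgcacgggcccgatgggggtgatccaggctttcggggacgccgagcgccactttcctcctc
Ltbp1: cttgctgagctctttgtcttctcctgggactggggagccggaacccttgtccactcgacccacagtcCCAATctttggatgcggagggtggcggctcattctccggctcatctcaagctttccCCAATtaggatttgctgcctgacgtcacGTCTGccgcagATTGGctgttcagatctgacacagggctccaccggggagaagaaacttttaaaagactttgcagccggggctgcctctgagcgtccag
Ltbp2: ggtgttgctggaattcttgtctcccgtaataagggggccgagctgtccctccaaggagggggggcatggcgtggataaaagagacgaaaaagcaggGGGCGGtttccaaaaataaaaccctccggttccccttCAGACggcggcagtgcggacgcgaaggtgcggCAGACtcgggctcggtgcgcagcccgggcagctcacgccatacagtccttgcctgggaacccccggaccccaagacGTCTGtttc

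The windows lie at chr5:66449148-66449397 (plus strand), chr8:124761470-124761719 (minus strand), chr14:2634044-2634293 (plus strand), chr6:26177302-26177551 (minus strand) and chr6:110257299-110257548 (minus strand). All 10 genes matched a RefSeq start by symbol. CAGAC was found in 2 of the 10 genes, both latent binders, with 1 match in Ltbp1 (first base at -99 from the start) and 3 in Ltbp2 (-117, -85 and -9), while 42.9% of 33469 rat promoter windows of the same length hold it. GGGCGG was present in 6 of 10, against 30.5% of all windows, and CCAAT in 4 of 10, against 34%. In Tgfbr1 a CCAAT match at -163 is followed at once by a GC box at -158, both on the opposite strand, and no 2 matches overlap in the windows shown. TGANTCA and TATAAA were in none of the 10 (6.34% and 12.9% of all windows). The Tgfbr1 and Tgfbr3 windows are rich in G and C, at 75.6% and 71.2%, while the Tgfbr2 window holds 58%, against a median of 51.2% over all windows. These matches are letters in a window and were not tested for binding.

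Among the ligands, Tgfb1 (ENSRNOG00000020652), the isoform most tied to fibrosis and to immune restraint, was 72.3, 72.4, 80.8 and 90.3 CPM in MCT-vehicle libraries 1 to 4, against 60.1, 59.5, 68.8 and 56.3 CPM in Control. Every MCT-vehicle library lay above every Control library. It rose by 0.37 ± 0.10 on the log2 scale (SE; 95% interval 0.15 to 0.58; edgeR adjusted p = 0.0212). The call was lost without MCT-vehicle 4 (adjusted p = 0.0630), Control 2 (0.0579) or Control 4 (0.0671), and without MCT-vehicle 2 and Control 4 together (0.0684). With ferrostatin-1, Tgfb1 was 60.3, 73.7, 78.3 and 66.3 CPM, a range that overlaps both other groups. It was -0.18 ± 0.10 log2 against MCT-vehicle (adjusted p = 0.491) and 0.19 ± 0.10 against Control (adjusted p = 0.260).

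Tgfb3 (ENSRNOG00000009867), an isoform needed for palate fusion and lung development in mice, was 43.9, 49.9, 30.6 and 38.2 CPM in MCT-vehicle, against 30.7, 30.2, 26.5 and 29.9 CPM in Control. MCT-vehicle 3 fell inside the Control range and the other 3 lay above it. Tgfb3 rose by 0.47 ± 0.13 on the log2 scale (95% interval 0.20 to 0.75; edgeR adjusted p = 0.0194). It missed the threshold without MCT-vehicle 2 (adjusted p = 0.0524), which holds the highest value, without Control 3 (0.0622), and without MCT-vehicle 2 and Control 4 together (0.0915). In MCT-Fer-1 the values were 32.7, 37.0, 32.8 and 31.3 CPM, all above the Control range and overlapping MCT-vehicle. Against MCT-vehicle the log2 fold change was -0.28 ± 0.12 (95% interval -0.55 to -0.01; unadjusted p = 0.0402, edgeR adjusted p = 0.389), which did not pass, and against Control it was 0.19 ± 0.13 (adjusted p = 0.387).

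Tgfb2 (ENSRNOG00000002418), the isoform that depends most on Tgfbr3 for binding, was 77.7, 94.3, 114 and 71.6 CPM in MCT-Fer-1, 97.2, 69.2, 74.2 and 107 CPM in MCT-vehicle and 74.2, 75.5, 90.6 and 76.9 CPM in Control. All 3 groups overlapped, and the SD was 18.9 CPM in MCT-Fer-1, 17.9 CPM in MCT-vehicle and 7.64 CPM in Control. The log2 fold change was 0.13 ± 0.16 in MCT-vehicle against Control (95% interval -0.22 to 0.48; edgeR adjusted p = 0.615) and 0.04 ± 0.16 in MCT-Fer-1 against MCT-vehicle (adjusted p = 0.938). An increase of up to 0.48 on the log2 scale with monocrotaline lies within the first interval.

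Tgfbr1 and Tgfbr2 rose against Control and Tgfbr3 fell. Tgfbr1 (ENSRNOG00000007036), the kinase that phosphorylates Smad2 and Smad3, was 112, 140.4, 173 and 129.6 CPM in MCT-Fer-1, 125, 117, 185 and 137 CPM in MCT-vehicle and 82.8, 99.9, 106 and 84.2 CPM in Control. All 8 monocrotaline libraries lay above all 4 controls, with MCT-vehicle 3 the highest. Tgfbr1 rose by 0.60 ± 0.16 on the log2 scale in MCT-vehicle against Control (95% interval 0.25 to 0.94; edgeR adjusted p = 0.0205) and 0.57 ± 0.16 in MCT-Fer-1 against Control (95% interval 0.23 to 0.92; adjusted p = 0.0360). Both contrasts share the Control libraries. Between MCT-Fer-1 and MCT-vehicle the difference was -0.02 ± 0.16 log2, with a 95% interval of -0.36 to 0.32.

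Tgfbr2 (ENSRNOG00000013265), the receptor that binds ligand first, was 375, 355, 380.3 and 324 CPM in MCT-Fer-1, 321, 348, 407 and 317 CPM in MCT-vehicle and 245, 287, 302 and 267 CPM in Control. Again all 8 monocrotaline libraries lay above all 4 controls. The log2 fold change was 0.34 ± 0.09 in MCT-vehicle against Control (95% interval 0.13 to 0.54; edgeR adjusted p = 0.0245), 0.38 ± 0.09 in MCT-Fer-1 against Control (95% interval 0.18 to 0.58; adjusted p = 0.0221) and 0.04 ± 0.09 between MCT-Fer-1 and MCT-vehicle (95% interval -0.16 to 0.25).

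Both calls against Control were near the threshold. For MCT-vehicle against Control, Tgfbr1 missed it without Control 1 (edgeR adjusted p = 0.0543), Control 4 (0.0626), or MCT-vehicle 2 and Control 4 together (0.0513). Tgfbr2 missed it without MCT-vehicle 3 (adjusted p = 0.0607), Control 1 (0.0641), Control 4 (0.0672), or MCT-vehicle 2 and Control 4 together (0.108). With MCT-Fer-1 set against Control, Tgfbr1 missed it without any 1 of MCT-Fer-1 2, 3 or 4 or Control 1, 2 or 4 (adjusted p 0.0545 to 0.109) or without MCT-vehicle 2 and Control 4 together (0.0972). Tgfbr2 there missed it without any 1 of MCT-Fer-1 2 or 3 or Control 1 or 4 (adjusted p 0.0503 to 0.0682) or without that pair (0.0789). Of 10 macrophage markers, 8 were called higher in MCT-vehicle against Control (10.3% of all genes were) and none lower, and none was at 0. Their summed level was 22653, 28215, 29483 and 25671 CPM in MCT-Fer-1, 25703, 22170.4, 35824 and 24815 CPM in MCT-vehicle and 22856, 24364, 23065 and 21929.7 CPM in Control. The highest sum was in MCT-vehicle 3, which also held the highest Tgfbr1 and Tgfbr2. The sums of MCT-vehicle 2 and MCT-Fer-1 1 lay within the Control range, while their Tgfbr1 and Tgfbr2 lay above every control. The part of these markers in the receptor values was not tested.

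Tgfbr3 (ENSRNOG00000002093) encodes betaglycan, a co-receptor without kinase activity that presents ligand to Tgfbr2 and that, when shed from the membrane, captures ligand. It was 262, 151, 143 and 170.0 CPM in MCT-Fer-1, 142, 161, 148 and 177 CPM in MCT-vehicle and 243, 245, 283 and 250.1 CPM in Control. All MCT-vehicle libraries were below all controls, and MCT-Fer-1 1 stood among the controls while the other 3 MCT-Fer-1 libraries were within the MCT-vehicle range. In MCT-vehicle against Control Tgfbr3 fell by 0.70 ± 0.16 on the log2 scale (95% interval -1.05 to -0.35; edgeR adjusted p = 0.00995). The call held without each library in turn and under all 21 alternatives, with adjusted p between 3.12e-04 and 0.0461. Tgfbr3 in MCT-Fer-1 against Control had a log2 fold change of -0.50 ± 0.16 (95% interval -0.85 to -0.15; edgeR adjusted p = 0.0700), which did not pass, while DESeq2 (adjusted p = 0.0240) and limma voom (0.0251) called it lower. Without MCT-Fer-1 1 it was -0.72, with an adjusted p of 6.47e-04. Against MCT-vehicle it was 0.21 ± 0.16 (adjusted p = 0.643), and -0.02 without MCT-Fer-1 1 (adjusted p = 0.950).

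The summed level of endothelial markers was, like Tgfbr3, lower in MCT-vehicle than in Control. Of 10 markers 9 were matched (Pecam1 was not), and in MCT-vehicle against Control 4 were called lower and 1 higher (8.28% and 10.3% of all genes). None was at 0. Their summed level was 4156, 2971, 3371 and 2798 CPM in MCT-Fer-1 libraries 1 to 4, 3307, 3032, 2518 and 2987 CPM in MCT-vehicle and 4499, 3994, 4321 and 3973 CPM in Control. MCT-Fer-1 1, the library with the control-like Tgfbr3, also had the highest sum among the monocrotaline libraries. The next highest sums, in MCT-Fer-1 3 and MCT-vehicle 1, went with the lowest Tgfbr3 (143 and 142 CPM). MCT-Fer-1 4 had the lowest sum of its group and a Tgfbr3 of 170 CPM. Erythroid markers were also lower in MCT-vehicle than in Control, and MCT-Fer-1 1 again had the highest sum among the monocrotaline libraries. Of 7 such markers 6 were matched (Hba-a1 was not), and all 6 were called lower in MCT-vehicle against Control (8.28% of all genes). Their summed level was 3389, 1740, 2178 and 1658 CPM in MCT-Fer-1, 1717 to 2252 CPM in MCT-vehicle and 3327 to 5479 CPM in Control. The lowest erythroid sum in MCT-vehicle was that of MCT-vehicle 4, which held the highest Tgfbr3 of its group (177 CPM). The part of either marker list in the Tgfbr3 values was not tested.

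Ratios of read counts within a library put the receptors on a scale free of library size. They show unequal change and not how many molecules of each there are. The ratio of Tgfbr3 to Tgfbr1 was 2.33, 1.08, 0.824 and 1.31 in MCT-Fer-1, 1.14, 1.37, 0.797 and 1.29 in MCT-vehicle and 2.94, 2.46, 2.66 and 2.97 in Control. Neither monocrotaline group reached the lowest control, and MCT-Fer-1 1 came nearest. It averaged 1.39 ± 0.659 in MCT-Fer-1, 1.15 ± 0.254 in MCT-vehicle and 2.76 ± 0.243 in Control (SD, n = 4 each). The ratio of Tgfbr2 to Tgfbr1 averaged 2.64 ± 0.488 in MCT-Fer-1, 2.51 ± 0.344 in MCT-vehicle and 2.96 ± 0.149 in Control, and the groups overlapped.

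**Figure D2:**
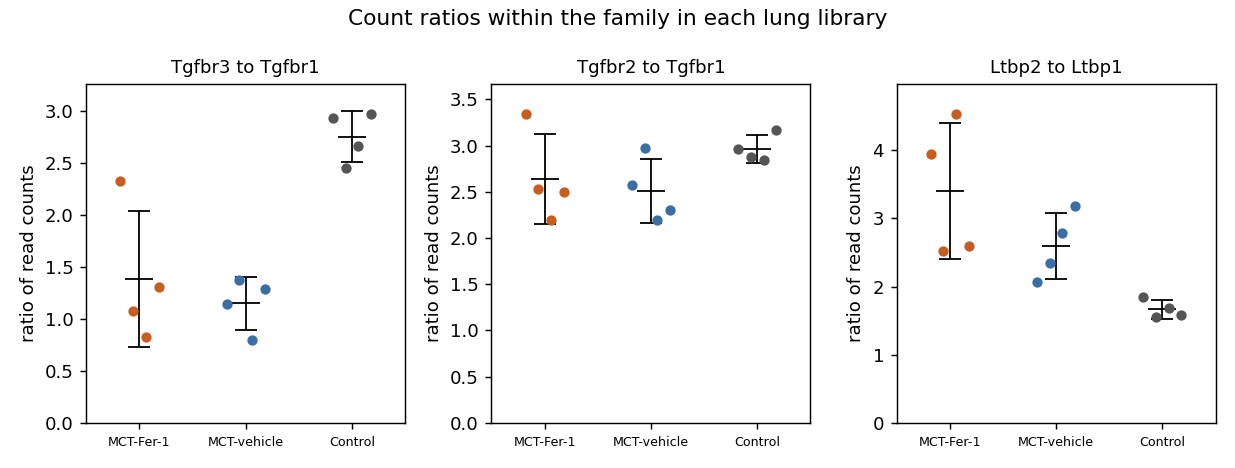
Ratios of read counts of gene pairs in each library (linear axis from 0). Points are libraries, the long bar is the group mean and the whiskers are 1 SD (n = 4 per group). Tgfbr3 to Tgfbr1 is lower and Ltbp2 to Ltbp1 is higher in all 8 monocrotaline libraries than in any control, while Tgfbr2 to Tgfbr1 overlaps.

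Of the latent binders, Ltbp2 passed the test against Control and Ltbp1 did not. Ltbp2 (ENSRNOG00000012094) encodes a microfibril protein that, unlike Ltbp1, does not bind latent TGF-beta covalently and that takes part in elastic fibre assembly. It was 378, 282, 387 and 216 CPM in MCT-Fer-1, 302, 316, 288 and 376 CPM in MCT-vehicle and 261, 183, 199.7 and 183 CPM in Control. The MCT-vehicle libraries lay above every control, while MCT-Fer-1 4 fell inside the Control range. Ltbp2 rose by 0.63 ± 0.18 on the log2 scale in MCT-vehicle against Control (95% interval 0.25 to 1.02; edgeR adjusted p = 0.0267) and 0.61 ± 0.18 in MCT-Fer-1 against Control (adjusted p = 0.0464). The call in MCT-vehicle was lost without MCT-vehicle 4 (adjusted p = 0.0750), Control 2 (0.0771), Control 3 (0.0695), Control 4 (0.0785), or MCT-vehicle 2 and Control 4 together (0.119). The call in MCT-Fer-1 was lost without any 1 of MCT-Fer-1 1, 2 or 3, MCT-vehicle 1, 2 or 3, or Control 2, 3 or 4 (adjusted p 0.0547 to 0.138), or MCT-vehicle 2 and Control 4 together (0.146). It was also lost in edgeR with no filter on low counts (adjusted p = 0.0620), with only the 2 groups compared (0.0742) and with a replicate block (0.0621). That call held in 8 of 21 alternatives. Between MCT-Fer-1 and MCT-vehicle it was -0.02 ± 0.18 log2 (95% interval -0.41 to 0.36). Fibroblast markers had 3 of 10 members called higher in MCT-vehicle (10.3% of all genes were) and none lower, none at 0, with sums of 981 to 1156 CPM in MCT-Fer-1, 1026 to 1385 CPM in MCT-vehicle and 886 to 1073 CPM in Control. Their part in the Ltbp2 values was not tested.

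Ltbp1 (ENSRNOG00000033090), the binder that links the latent complex covalently to the matrix, was lowest in MCT-Fer-1. It was 95.8, 112, 85.6 and 83.2 CPM in MCT-Fer-1, 147, 135, 103 and 118 CPM in MCT-vehicle and 141, 118, 119 and 116 CPM in Control. All 4 MCT-Fer-1 libraries lay below all 4 controls, and MCT-vehicle overlapped both groups. Ltbp1 in MCT-Fer-1 against MCT-vehicle had a log2 fold change of -0.42 ± 0.12 (95% interval -0.68 to -0.16; unadjusted p = 0.00382), the smallest p of the 10 genes, but it did not pass (edgeR adjusted p = 0.229; DESeq2 0.0623). Set against Control it was -0.39 ± 0.12 (95% interval -0.65 to -0.13; edgeR adjusted p = 0.0532), just short of the threshold. That contrast passed in 9 of 21 alternatives, among them DESeq2 (adjusted p = 0.0182) and leaving out MCT-Fer-1 2 (0.0300), MCT-vehicle 1 (0.0417) or MCT-vehicle 3 (0.0342). Between MCT-vehicle and Control the difference was 0.03 ± 0.12 log2 (95% interval -0.23 to 0.28; edgeR adjusted p = 0.901), and its sign changed without MCT-vehicle 1, MCT-vehicle 2 or Control 4.

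The ratio of Ltbp2 to Ltbp1 counts was 3.95, 2.52, 4.52 and 2.60 in MCT-Fer-1, 2.06, 2.35, 2.79 and 3.18 in MCT-vehicle and 1.85, 1.55, 1.68 and 1.58 in Control. No monocrotaline library came as low as the highest control. Means were 3.40 ± 0.996 in MCT-Fer-1, 2.59 ± 0.491 in MCT-vehicle and 1.67 ± 0.135 in Control (SD, n = 4 each). MCT-Fer-1 and MCT-vehicle overlapped. The ratios were set up with values of these genes known and carry no test.

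The receptor-activated Smads showed no difference that passed. Smad2 (ENSRNOG00000018140) averaged 52.4 ± 2.97 CPM in MCT-Fer-1, 49.6 ± 4.21 CPM in MCT-vehicle and 50.6 ± 2.43 CPM in Control (SD, n = 4 each). Its log2 fold change in MCT-vehicle against Control was -0.03 ± 0.07, with a 95% interval of -0.19 to 0.13 (edgeR adjusted p = 0.826), the narrowest of the 10. Smad3 (ENSRNOG00000008620) was 64.6, 65.8, 61.3 and 63.0 CPM in MCT-Fer-1, 72.2, 71.7, 63.2 and 77.4 CPM in MCT-vehicle and 59.8, 64.1, 72.8 and 73.5 CPM in Control. MCT-Fer-1 libraries kept within a narrow band that overlapped both other groups. The log2 fold change of Smad3 was 0.08 ± 0.08 in MCT-vehicle against Control (95% interval -0.10 to 0.25; adjusted p = 0.555) and -0.16 ± 0.08 in MCT-Fer-1 against MCT-vehicle (95% interval -0.33 to 0.01; adjusted p = 0.444). RNA levels say nothing of Smad phosphorylation, which was not measured.

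**Figure D3:**
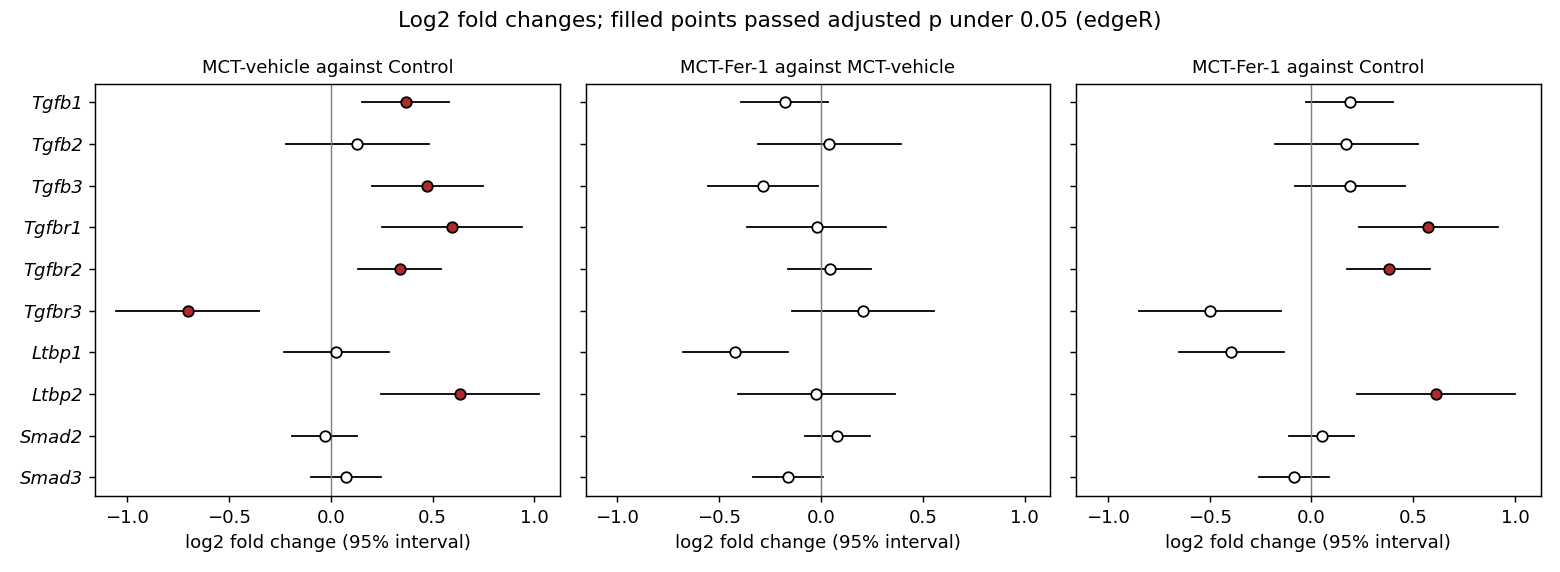
Log2 fold changes of the 10 genes in the 3 comparisons, with 95% intervals from edgeR's quasi-likelihood fit of 12 libraries. Filled points passed an adjusted p of 0.05: 6 in MCT-vehicle against Control, 0 in MCT-Fer-1 against MCT-vehicle and 3 in MCT-Fer-1 against Control.

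In MCT-Fer-1 against MCT-vehicle 0 of 10 genes passed in edgeR, DESeq2 or limma voom. At an unadjusted p under 0.05 there were 2 (Tgfb3 and Ltbp1), both lower, against 12% of all genes tested. Over the whole table DESeq2 called 227 genes and limma voom called 0, and edgeR had 1835 at an unadjusted p under 0.05. None of the 10 had MCT-Fer-1 values wholly apart from MCT-vehicle, against 6.1% of all genes. Their median log2 fold change was -0.02, against -0.01 over all genes tested. In MCT-Fer-1 against Control 3 of 10 passed, all higher (Tgfbr1, Tgfbr2 and Ltbp2), against 10.8% of all genes (6.67% higher, 4.12% lower). In that contrast 4 of 10 did not overlap Control, against 19.1% of all genes, with Tgfb3, Tgfbr1 and Tgfbr2 above it (10.6% of all genes) and Ltbp1 below (8.54%). The median was 0.18 over the 10 genes and -0.0036 over all. That Tgfb1, Tgfb3 and Tgfbr3 passed in MCT-vehicle against Control and not in MCT-Fer-1 against Control does not show a difference between the monocrotaline groups, and the test of that difference passed for none of them.

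The calls in MCT-vehicle against Control differed in how firmly they held when libraries were left out one at a time. Between 2 and 6 of the 10 genes were called across the 12 fits without 1 library. Without MCT-vehicle 2 and Control 4 together, the libraries with the most heart muscle transcripts, Tgfbr3 alone passed, and 1675 genes were called over the table in place of 2843. That fit also has 1 library fewer in each of these groups. The log2 fold changes of Tgfb1, Tgfb3, Tgfbr1, Tgfbr2 and Ltbp2 were then 0.37, 0.37, 0.63, 0.32 and 0.58. With all libraries they were 0.37, 0.47, 0.60, 0.34 and 0.63. Why the calls were lost was not tested. Under that setting none of the 10 passed in MCT-Fer-1 against Control, where 978 genes were called in place of 1646.

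**Figure D4:**
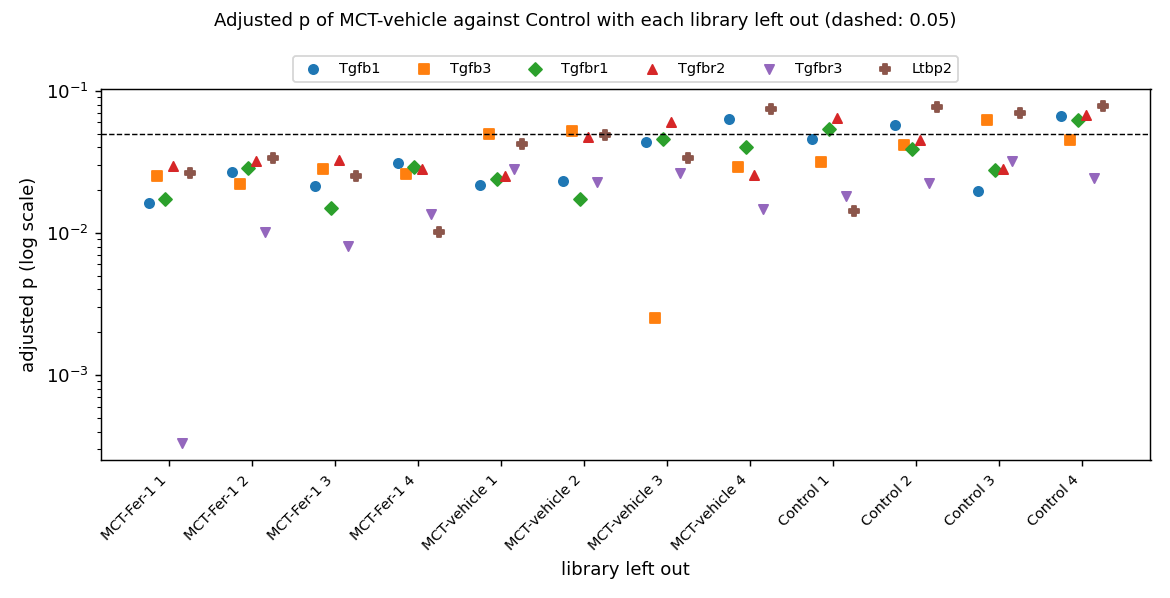
Adjusted p (log axis) in MCT-vehicle against Control of the 6 genes called there, refitted with edgeR without each of the 12 libraries. The dashed line is 0.05. Tgfbr3 stays under it in every refit, and the other 5 cross it without at least 2 of the libraries.

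Further genes of the pathway were read from 4 lists. The lists follow textbook knowledge but were chosen with earlier results of these data known, and they do not include the 10 genes. The list of latent complex and activation genes had 29 symbols, of which 28 matched and 26 were tested. In MCT-vehicle against Control 9 rose and 1 fell (of all genes tested, 10.3% were called higher and 8.28% lower), with a median log2 fold change of 0.28, against 0.02 over all genes. Mmp2, a gelatinase that can release latent TGF-beta, rose to 438 ± 43.5 CPM in MCT-vehicle, against 199 ± 32.6 CPM in Control (log2 fold change 1.14 ± 0.13; adjusted p = 1.17e-04). Mmp14, the membrane protease that activates Mmp2, rose to 147 ± 10.6 CPM in MCT-vehicle, against 71.8 ± 15.4 CPM in Control (log2 fold change 1.04 ± 0.13; adjusted p = 2.71e-04). Bgn, a matrix proteoglycan that binds TGF-beta, rose to 959 ± 119 CPM in MCT-vehicle, against 536 ± 29.0 CPM in Control (log2 fold change 0.84 ± 0.11; adjusted p = 4.18e-04). Fbn1, the microfibril scaffold on which latent binders dock, rose to 333 ± 33.1 CPM in MCT-vehicle, against 200.1 ± 23.5 CPM in Control (log2 fold change 0.74 ± 0.11; adjusted p = 9.20e-04). Each was tested with edgeR over all genes, and each SE follows its fold change. Without MCT-vehicle 2 and Control 4 together, 7 genes of this list rose and 1 fell.

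With ferrostatin-1, 20 of the 26 were lower and 6 higher than in MCT-vehicle, with a median of -0.15 against -0.01 over all genes, and none passed in edgeR (9 at an unadjusted p under 0.05, against 12% of all genes). DESeq2 called 1 of them, Ltbp3, and 227 of 21694 genes over the table. Ltbp3, another latent binder that attaches to latent TGF-beta covalently, was 74.2 ± 4.25 CPM in MCT-Fer-1, 90.6 ± 7.05 CPM in MCT-vehicle and 73.5 ± 2.43 CPM in Control. It was -0.29 ± 0.07 log2 in MCT-Fer-1 against MCT-vehicle (adjusted p = 0.169 in edgeR and 0.0134 in DESeq2) and 0.30 ± 0.07 in MCT-vehicle against Control (edgeR adjusted p = 0.00802). The MCT-vehicle libraries enter these 2 contrasts with opposite sign. Their spread alone can therefore give opposite fold changes, for this gene and for each of the 4 lists, so opposite signs do not show a reversal. Thbs1, thrombospondin, which activates latent TGF-beta, was 153 ± 35.4 CPM in MCT-Fer-1, 271 ± 64.9 CPM in MCT-vehicle and 272 ± 109 CPM in Control, and the difference between the monocrotaline groups, -0.82 ± 0.28, did not pass (adjusted p = 0.292). Against Control, 6 of the 26 in MCT-Fer-1 rose and 1 fell, where 6.67% of all genes were called higher and 4.12% lower. Without MCT-vehicle 2 and Control 4 together, 4 rose and 1 fell.

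Of 19 co-receptors and receptor regulators, all tested, 2 rose and 3 fell in MCT-vehicle against Control, where 10.3% of all genes were called higher and 8.28% lower, with a median of -0.13 against 0.02 over all genes. Acvrl1, the endothelial type I receptor also called ALK1, fell to 489 ± 78.5 CPM in MCT-vehicle, against 692 ± 33.7 CPM in Control (log2 fold change -0.50 ± 0.12; adjusted p = 0.0133), and the call was lost without MCT-vehicle 2 and Control 4 (adjusted p = 0.0730). Zfyve9, which brings Smads to the receptor, fell to 37.7 ± 3.12 CPM in MCT-vehicle, against 48.5 ± 2.79 CPM in Control (log2 fold change -0.37 ± 0.08; adjusted p = 0.00576). Pmepa1, a target gene whose product restrains the receptor, rose to 82.7 ± 11.0 CPM in MCT-vehicle, against 63.0 ± 5.23 CPM in Control (log2 fold change 0.39 ± 0.11; adjusted p = 0.0275). It missed the threshold without MCT-vehicle 1 or 4 or Control 1, 2 or 3 (adjusted p 0.0530 to 0.0843). Dab2, an endocytic adaptor of the receptors, rose to 218 ± 35.2 CPM in MCT-vehicle, against 172 ± 7.73 CPM in Control (log2 fold change 0.34 ± 0.10; adjusted p = 0.0316), and missed it without MCT-vehicle 3 or any 1 control (adjusted p 0.0554 to 0.0750), without MCT-vehicle 2 and Control 4 together (0.0717), and with only MCT-vehicle and Control in the fit (0.0542). These p-values are edgeR's. Without MCT-vehicle 2 and Control 4 together, 1 rose and 1 fell. Endothelial marker sums, given beside Tgfbr3, were like Acvrl1 lower in MCT-vehicle than in Control. Between MCT-Fer-1 and MCT-vehicle, Acvrl1 averaged 488 and 489 CPM, while the endothelial sum averaged 3324 and 2961 CPM. The part of these markers in the Acvrl1 values was not tested.

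None of the 19 passed in MCT-Fer-1 against MCT-vehicle (2 at an unadjusted p under 0.05, against 12% of all genes; median 0.03 against -0.01). Against Control, 1 of the 19 in MCT-Fer-1 rose and 2 fell, where 10.8% of all genes were called, and without MCT-vehicle 2 and Control 4 together 1 rose and none fell. The smallest p-values between the monocrotaline groups were those of Pmepa1, at 64.6 ± 8.71 CPM in MCT-Fer-1 (log2 fold change -0.36 ± 0.11 against MCT-vehicle; edgeR adjusted p = 0.268), and of the co-receptor Nrp1, at 464 ± 37.7 CPM in MCT-Fer-1 and 373 ± 63.1 CPM in MCT-vehicle (0.31 ± 0.12; adjusted p = 0.352).

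Of 14 tested Smad partners and brakes (16 symbols, 15 matched), none rose and 4 fell in MCT-vehicle against Control (10.3% of all genes were called higher and 8.28% lower), with a median of -0.19 against 0.02 over all genes. Smad4, the shared partner of Smad2 and Smad3, fell to 68.4 ± 4.14 CPM in MCT-vehicle, against 84.5 ± 3.66 CPM in Control (log2 fold change -0.31 ± 0.06; adjusted p = 0.00454). Smad7, the inhibitory Smad that blocks Tgfbr1 and is itself induced by TGF-beta, fell to 84.4 ± 8.96 CPM in MCT-vehicle, against 124 ± 12.1 CPM in Control (log2 fold change -0.56 ± 0.12; adjusted p = 0.00633). Both calls held under all 21 alternatives. Yap1, a coactivator that meets Smads in the nucleus, fell to 51.2 ± 2.93 CPM in MCT-vehicle, against 63.8 ± 6.61 CPM in Control (log2 fold change -0.32 ± 0.08; adjusted p = 0.0189), and Trim33, which competes with Smad4 for Smad2 and Smad3, fell to 43.4 ± 4.88 CPM in MCT-vehicle, against 53.7 ± 5.18 CPM in Control (log2 fold change -0.31 ± 0.10; adjusted p = 0.0429). These p-values are edgeR's, and the last 2 calls were weaker: Yap1 missed the threshold without Control 2, 3 or 4 (adjusted p 0.0536 to 0.0598) or MCT-vehicle 2 and Control 4 together (0.101), and Trim33 in 11 of 21 alternatives (adjusted p up to 0.128, without Control 3; 0.0767 without that pair). Without MCT-vehicle 2 and Control 4 together 2 of the 14 fell.

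In MCT-Fer-1 against MCT-vehicle 12 of the 14 were higher and 2 lower, and none passed in edgeR (1 at an unadjusted p under 0.05, against 12% of all genes; median 0.11 against -0.01 over all genes). The smallest p-values were those of Zeb2, a Smad-binding repressor (116 ± 18.1 CPM in MCT-Fer-1 and 94.2 ± 9.17 CPM in MCT-vehicle; adjusted p = 0.395), and Yap1 (57.6 ± 3.87 CPM in MCT-Fer-1; adjusted p = 0.442). Against Control, 2 of the 14 in MCT-Fer-1 fell and none rose (4.12% of all genes were called lower and 6.67% higher), and 1 fell without MCT-vehicle 2 and Control 4.

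Genes known to respond to TGF-beta, many of them matrix genes, were mostly higher in MCT-vehicle lungs. Of 35 tested targets, 20 rose and 1 fell in MCT-vehicle against Control, where 18.6% of all genes passed, and their median log2 fold change was 0.63, against 0.02 over all genes. Fn1, fibronectin, rose to 2456 ± 336 CPM in MCT-vehicle, against 749.9 ± 131 CPM in Control (log2 fold change 1.71 ± 0.21; adjusted p = 2.60e-04). Eln, elastin, rose to 1879 ± 189.6 CPM in MCT-vehicle, against 829.9 ± 100.3 CPM in Control (log2 fold change 1.18 ± 0.14; adjusted p = 1.65e-04). Loxl2, which cross-links collagen and elastin, rose to 38.3 ± 4.56 CPM in MCT-vehicle, against 20.0 ± 3.11 CPM in Control (log2 fold change 0.93 ± 0.12; adjusted p = 3.19e-04). Col5a1, a fibrillar collagen chain, rose to 135 ± 19.1 CPM in MCT-vehicle, against 81.3 ± 6.90 CPM in Control (log2 fold change 0.73 ± 0.10; adjusted p = 5.06e-04). These p-values are edgeR's over all genes. The single target that fell was Smad7, which also stands among the brakes. Pmepa1, Skil and Thbs1 too stand both here and in another of the 4 lists, so the list counts are not separate. Without MCT-vehicle 2 and Control 4 together 14 rose and 1 fell. Fibroblast markers, whose sums are given beside Ltbp2, had 3 of 10 called higher in MCT-vehicle, with sums that overlapped Control. Their part in the values of these targets was not tested.

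Set against MCT-vehicle, 28 of the 35 targets in MCT-Fer-1 were lower and 7 higher, with a median of -0.27 against -0.01 over all genes, and none passed in edgeR (11 at an unadjusted p under 0.05, against 12% of all genes). DESeq2 called 4 of them, and 227 of 21694 genes over the table. Sphk1, the kinase that makes sphingosine 1-phosphate, was 4.24 ± 0.435 CPM in MCT-Fer-1, 8.66 ± 2.40 CPM in MCT-vehicle and 5.08 ± 1.43 CPM in Control, at -1.04 ± 0.23 log2 between the monocrotaline groups (edgeR adjusted p = 0.158). It passed without MCT-vehicle 3 (adjusted p = 0.0483) and in DESeq2 (0.00388). Col1a1, the main chain of fibrillar collagen, was 528 ± 57.3 CPM in MCT-Fer-1, 802 ± 198 CPM in MCT-vehicle and 378 ± 49.5 CPM in Control, at -0.60 ± 0.15 log2 (edgeR adjusted p = 0.196; DESeq2 0.0182). In MCT-Fer-1 lungs 10 targets rose against Control and 1 fell, where 6.67% of all genes were called higher and 4.12% lower. The median was 0.34, against -0.0036 over all genes, and without MCT-vehicle 2 and Control 4 together 6 rose and 1 fell. Fn1 averaged 1826 ± 569 CPM in MCT-Fer-1, a log2 fold change of -0.43 ± 0.21 against MCT-vehicle (edgeR adjusted p = 0.431) and of 1.28 ± 0.21 against Control (adjusted p = 0.00215). Eln averaged 1588 ± 308 CPM in MCT-Fer-1, with -0.24 ± 0.14 against MCT-vehicle (adjusted p = 0.499) and 0.94 ± 0.14 against Control (adjusted p = 9.44e-04). Both matrix genes thus passed against Control with ferrostatin-1 and did not pass against MCT-vehicle. The contrasts against Control share the Control libraries, so their values are given side by side only. MCT-vehicle against Control and MCT-Fer-1 against MCT-vehicle share the MCT-vehicle libraries with opposite sign, so targets higher in the first and lower in the second do not show a reversal.

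**Figure D5:**
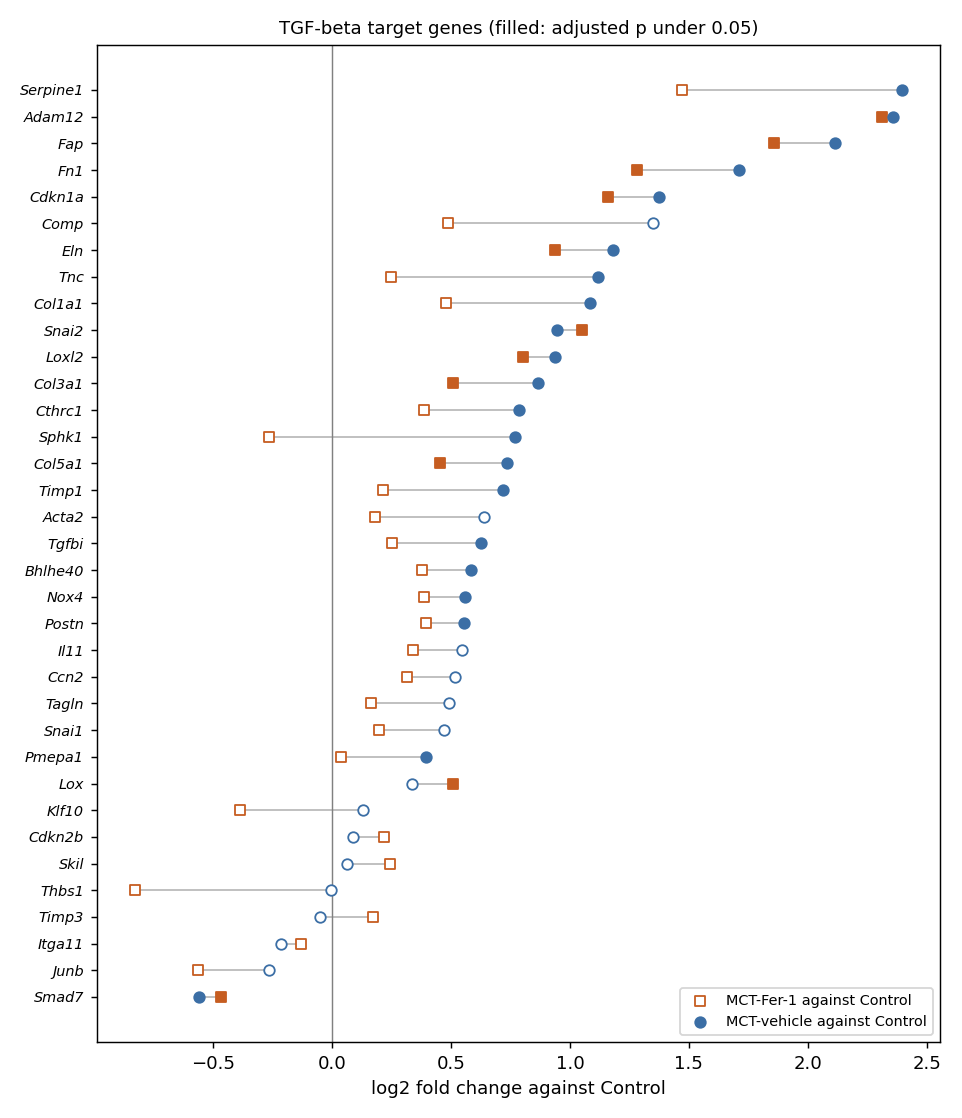
Log2 fold changes against Control (linear axis) of the 35 TGF-beta target genes tested, in MCT-Fer-1 (squares) and MCT-vehicle (circles), ordered by MCT-vehicle. Filled symbols passed an edgeR adjusted p of 0.05. The median is 0.34 in MCT-Fer-1 and 0.63 in MCT-vehicle, and Smad7 is lowest in MCT-vehicle.

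For each gene called in MCT-vehicle against Control, the 2 genes with the most similar profile over the 12 libraries were found by the root-mean-square distance between mean-centred log2 CPM, given in parentheses in log2 units. Nearest to Tgfb1 were Arpc1b (0.0664) and Pfn1 (0.0787), both of the actin cytoskeleton. Nearest to Tgfbr1 were Prdx5 (0.102) and Grn (0.102), a peroxiredoxin and progranulin, and to Tgfbr2 Washc5 (0.0710) and Pgm3 (0.0726). Nearest to Tgfb3 were Trmt6 (0.102) and Pdzd11 (0.105). The profile of Tgfbr3 was closest to Sec14l1 (0.109) and Ica1 (0.127), and that of Ltbp2 to Myh10 (0.170) and Igdcc4 (0.177), where Myh10 is a non-muscle myosin heavy chain. The distance is a description over 12 libraries that share their groups, and carries no test.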

How the data were processed

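The 12 lung RNA-seq libraries, 4 per group, were grouped by sample title. The deposited table holds raw counts per gene, which the authors made from their reads. Its 3 further columns, a signal averaged by the authors per group, equalled the mean of the 4 counts within 0.01 in 32883 of 32883 genes and were not used. The sources used here name no aligner, counting tool, strand setting or genome build, so reads of overlapping or antisense genes cannot be told apart.

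Genes were kept with filterByExpr in edgeR 4.0.16 (R 4.3.3), which removed 17626 and left 15257, with 99.9% of all counts. Counts were scaled by TMM. A robust quasi-likelihood model took 1 coefficient per group from all 12 libraries together (9 residual degrees of freedom), and p-values were adjusted by Benjamini-Hochberg over all genes tested. SEs of log2 fold changes are the absolute fold change over the root of F. DESeq2 1.42.0 and limma 3.58.1 (voom), other scalings, no filter, thinning to the smallest total and left-out libraries were alternatives. The fit was tested on simulated data first. Library totals of 11601929 to 70627239 counts set the counting error only, while the SEs also take in the spread between libraries.

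The members, lists, ratios and named genes were chosen with earlier results of these data known. Of each list, the 4 genes with the smallest p in MCT-vehicle against Control and the 2 with the smallest in MCT-Fer-1 against MCT-vehicle are named. Unmatched symbols were not analysed here. No 2 libraries agreed within sampling noise (chi-square per degree of freedom 10.3 to 79.6 over 66 pairs). Promoter windows came from RefSeq, build GRCr8, which may differ from the build counted.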

Additional observations from a re-analysis of the deposited data

Results flagged for a closer look

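In each group of 4 libraries the highest or lowest value of the 10 genes was set against the others by Dixon's 95% criterion. Of 30 such groups 3 held a library that stood apart, and chance gives about 1 in 20. All 3 were controls. Tgfb2 was 90.65 CPM in Control 3, against 74.2 to 76.9 CPM in the other controls. Tgfbr3 was 283.3 CPM in Control 3, against 243 to 250.1 CPM. Ltbp1 was 141.1 CPM in Control 1, against 116 to 118.6 CPM. MCT-Fer-1 1, whose Tgfbr3 of 262 CPM lay among the controls, did not meet the criterion.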

How the results depend on the processing

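Counts of called genes and of called members stayed within 1.5 times their values under most of the 21 alternatives. In MCT-vehicle against Control the exception beside single left-out libraries was the fit without MCT-vehicle 2 and Control 4 (1675 genes and 1 member), and with 1 library left out the counts ran from 2021 to 2860 genes and from 2 to 6 members. In MCT-Fer-1 against MCT-vehicle DESeq2 called 227 genes and the fit of only those groups called 1 gene, with 0 to 41 genes and 0 members when 1 library was left out. In MCT-Fer-1 against Control DESeq2 and limma voom each called 5 members, the fit without MCT-vehicle 2 and Control 4 called 978 genes and 0 members, and left-out libraries gave 977 to 1714 genes and 0 to 3 members.

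Among the 10 genes the sign changed for the following differences, none of which passed the test. In MCT-vehicle against Control, Ltbp1 was -0.04 and Smad2 0.016 without MCT-vehicle 2 and Control 4, and with single libraries left out Ltbp1 ran from -0.055 to 0.11 and Smad2 from -0.094 to 0.0014. In MCT-Fer-1 against MCT-vehicle, Tgfb2 was -0.05 without MCT-vehicle 2 and Control 4. With single libraries left out, Tgfb2 ran from -0.10 to 0.16, Tgfbr1 from -0.14 to 0.14, Tgfbr3 from -0.022 to 0.31 and Ltbp2 from -0.14 to 0.13. The cause was not tested. Other scalings moved the median of all genes by less than 0.1 log2.

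Replicate numbers did not pair the libraries: deviations of same-numbered libraries correlated at -0.0633 to 0.102 over 12 pairs, and those of other numbers at -0.172 to 0.150 over 36. With the replicate block 2812, 0 and 1676 genes were called in MCT-vehicle against Control, MCT-Fer-1 against MCT-vehicle and MCT-Fer-1 against Control, with 6, 0 and 3 members. In the last, Ltbp2 missed the threshold (adjusted p = 0.0621 in edgeR) and Ltbp1 passed (0.0183).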
